A study of Mus musculus with 64 samples.

Results

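The 35 genes described here are transcription factors that pattern the hypothalamus and the ventral forebrain. They were taken by gene symbol from a count table of 55401 genes, and all 35 were found and passed the filter on low counts, as did 18971 genes in all. The table covers 2 brain regions of adult mice, the whole hypothalamus and the prefrontal cortex (PFC, called frontal cortex in the labels), measured by RNA sequencing in 8 groups of 8 libraries. The mice were group-housed, chow-fed male C57BL/6J animals, 10 weeks old when they were injected. Each received 1 intraperitoneal dose, either psilocybin at 3 mg/kg, a serotonergic psychedelic, or isotonic saline, and tissue was taken 3 h or 4 weeks later. The 4-week mice were therefore older at harvest than the 3 h mice, and harvest time and age cannot be told apart. A total of 62 libraries with at least 1000000 counts were used, 31 from each region, with 8061033 to 70361839 counts per library. The left-out libraries were saline 3 h replicate 2 of the hypothalamus and psilocybin 4 weeks replicate 3 of the PFC. Hypothalamus libraries were extracted in pools A and B and PFC libraries in pools C and D, so pool and region cannot be told apart.

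Most of these factors carry a homeodomain, a forkhead domain or a nuclear receptor fold, and each marks a zone of the embryonic forebrain before it marks a set of adult neurons. Nkx2-1 and its relatives set up ventral identity under Sonic hedgehog, Six3, Six6 and Rax belong to the eye and anterior forebrain programme, and Sim1 with Otp is needed for the neuroendocrine neurons of the paraventricular nucleus. Nr5a1 (SF-1) defines the ventromedial nucleus, Foxb1 the mammillary body, and the Dlx genes the GABAergic neurons of the subpallium, including interneurons that migrate to the cortex. Many of these genes remain restricted to 1 nucleus in adults, so their level in a dissected block depends both on how many such cells it holds and on the RNA in each cell. Fewer cells of a type and less RNA per cell cannot be told apart in bulk tissue, and this holds for each level given here.

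Promoters of 3 members are shown because the transcripts of Lhx6 and Lhx8, and of Fezf1 with Nr5a1, varied together between hypothalamus libraries (described with the correlations). The sequences come from RefSeq on GRCm38.p6 and read 5′ to 3′ on the minus strand: Lhx6 at chr2:36105409-36105658, Lhx8 at chr3:154330660-154330810 and Fezf1 at chr6:23248363-23248514. The printed Lhx8 and Fezf1 stretches hold the 151 and 152 of the 250 bases that also lie before the gene's 5′ end in the count table, and the search for motifs over all promoters read 250 bases in every window. Lhx6 has 3 annotated starts, and the window nearest to the 5′ end of the gene in the count table is shown. Capitals mark the letters AATTA, which is TAATT, a core of many homeodomain motifs, on the other strand.
Lhx6: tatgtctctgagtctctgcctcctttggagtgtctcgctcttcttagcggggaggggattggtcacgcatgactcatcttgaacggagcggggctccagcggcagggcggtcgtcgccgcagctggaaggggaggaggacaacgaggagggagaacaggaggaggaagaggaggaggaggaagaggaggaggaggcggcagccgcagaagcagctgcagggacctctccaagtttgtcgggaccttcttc
Lhx8: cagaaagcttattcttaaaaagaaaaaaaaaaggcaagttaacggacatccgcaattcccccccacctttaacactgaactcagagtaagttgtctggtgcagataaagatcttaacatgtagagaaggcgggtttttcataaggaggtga
Fezf1: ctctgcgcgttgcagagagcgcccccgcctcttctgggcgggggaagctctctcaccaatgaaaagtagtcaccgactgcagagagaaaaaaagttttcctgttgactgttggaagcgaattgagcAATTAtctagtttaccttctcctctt
Neither the Lhx6 nor the Lhx8 stretch held TAATT on either strand, while the Fezf1 stretch held it in 1 place. Of 26 members with a RefSeq promoter, 7 (Six3, Sim1, Fezf1, Foxa1, Barhl1, Lhx9 and Meis2; 26.9%) held TAATT on 1 of the strands in the 250 bases before the start, against 25% of all 32851 windows of that length. CAAGTG, an NKX2 motif searched on both strands as well, was found in 2 of 26 (Nkx2-2 and Lmx1a; 7.69%) against 11.6% of all windows. The shares of the members were thus near those of all promoters.

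The hypothalamus block was checked against genes of its peptides and of histamine synthesis (Hdc). The summed level of this 12-gene hypothalamic list was 503 to 3322 counts per 1000000 (CPM, scaled for library composition) in hypothalamus libraries and 103 to 233 CPM in PFC libraries, with Kiss1 at 0 in every library. Sst, which cortical interneurons also express, made up most of the PFC sum (99.2 to 225 CPM, against 55.1 to 356 in hypothalamus), and the sum of the other 11 genes was 447 to 2966 CPM in hypothalamus and 1.95 to 27.1 in PFC. The hypothalamus libraries also held a 9-gene thalamic list at 377 to 1256 CPM, against 64.8 to 163 CPM in the PFC, and a striatal list of 10 genes at 248 to 921 CPM. Hypothalamus psilocybin 4 weeks replicate 5 stood apart. It had the highest hypothalamic sum (3322 CPM) and the highest thalamic sum (1256 CPM). The former rests mostly on Oxt and Avp and the latter in large part on Calb2, since the highest values of the other genes are too low. Over hypothalamus libraries Oxt reached 1201 CPM (mean 172), Avp 1121 (mean 189) and Calb2 757 (mean 266). Of a tanycyte list this library had the highest Rax (5.52 CPM) but the lowest sum of the other 5 genes (96.7 CPM), of which Col25a1 was the most abundant and Crym and Lhx2 were higher in PFC. In a weighted fit its library weight was 0.0276, when the other libraries had weights from 0.120 to 2.64. It held the lowest or the highest hypothalamus value of 15 of the 35 members, and where such a value is printed below the next one is given with it.

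As a set the factors were more abundant in hypothalamus than in PFC. Their transcripts together made up 374 to 542 reads per 1000000 in hypothalamus libraries and 224 to 330 in PFC libraries, and the latter came mostly from Meis2, Dlx1, Lhx6 and Zfhx4. By edgeR's quasi-likelihood test 34 of 35 differed between regions at an adjusted p below 0.05, 32 higher in hypothalamus and 2 higher in PFC, where 76.2% of all tested genes were called, 36.5% higher in hypothalamus and 39.6% higher in PFC. The count over all members is a description only, since 20 of the 35 passed the filter on low counts through the hypothalamus alone. Among the 15 that also passed in the PFC libraries alone, 14 were called, 12 higher in hypothalamus and 2 higher in PFC, with a median log2 difference of 1.44 beside -0.02 over all tested genes. A total of 27 members had no overlap between the 31 hypothalamus and the 31 PFC libraries, beside 11.3% of all tested genes, and 19 of the 27 are among the 20 that passed through the hypothalamus alone. The other 8 members overlapped: Lhx6, Lhx8, Dlx1, Dlx2, Dlx5, Dlx6, Zfhx4 and Onecut2. The 20 members summed to 101 to 168 reads per 1000000 in hypothalamus and 0.272 to 7.22 in PFC, a gap that follows in part from how the 20 were set apart. For 16 members, among them Six3 (Six3os1), Dlx1 (Dlx1as) and Dlx6 (Dlx6os1), a gene overlaps on the other strand, and its reads may be part of their counts because the study's methods ask that both ends of a read lie on 1 strand, while the setting for the strand of the gene is not given in the sources used here.

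**Figure D1:**
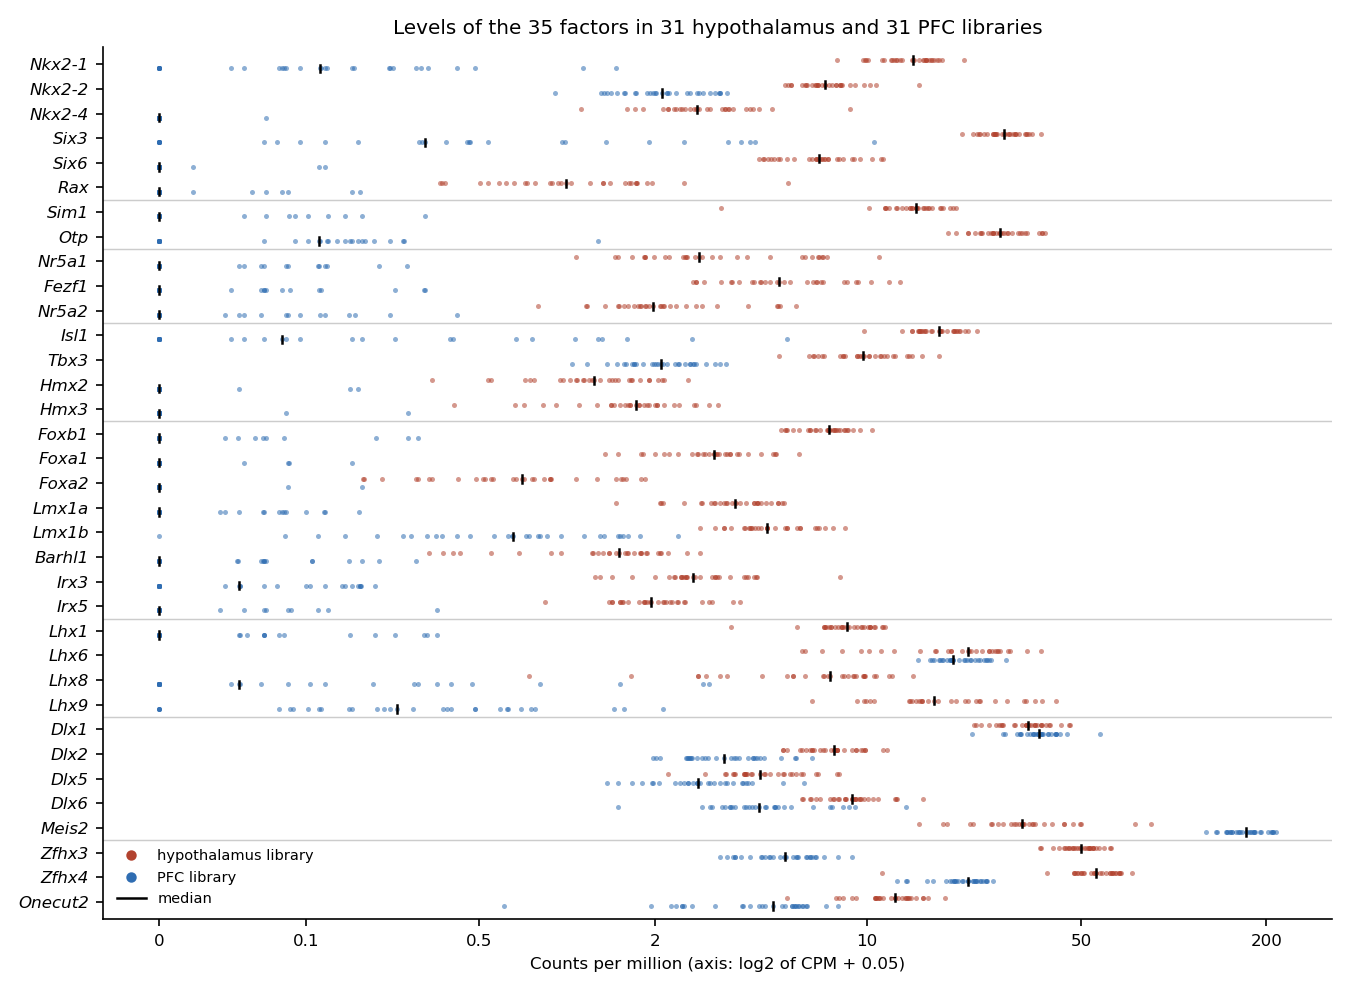
CPM of each factor (x axis, log2 of CPM + 0.05) in 31 hypothalamus libraries (red points) and 31 PFC libraries (blue points), with the median of each region as a black bar and grey lines between the classes of factors. The points of Lhx6 and Dlx1 overlap widely between the regions, those of Six3 and Otp lie apart, and Meis2 lies higher in PFC.

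Per length of transcript, the paraventricular factor Otp was the most abundant of the 35 in hypothalamus at 9.64 ± 1.81 FPKM (CPM per kilobase of exon; SD, n = 31), ahead of Dlx1 (6.13 ± 1.15), Six3 (5.16 ± 0.73) and Nkx2-1 (4.87 ± 1.00). The lowest were Foxa2 (0.338 ± 0.208) and Rax (0.217 ± 0.165). In all, 8 factors lay above 3 FPKM, 18 between 1 and 3 and 9 below 1. Of the 34 neighbours in this order 33 lay closer than their combined SD, the exception being Otp and Dlx1, so the other neighbours did not differ beyond their spread. In PFC the order was led by Meis2 (14.3 ± 2.00 FPKM), Dlx1 (6.77 ± 1.14) and Lhx6 (4.23 ± 0.68).

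Among the ventral and eye-field factors, Six3 was the most abundant in hypothalamus, at 20.4 CPM in the lowest library, 27.9 in the median and 37.0 in the highest (the library that stood apart, next 34.6). In PFC it lay at 0 to 10.6 CPM with a median of 0.316, so the regions did not overlap and the log2 difference was 5.09 ± 0.30 (SE). Nkx2-1, at 7.95, 14.1 and 20.7 CPM in hypothalamus (lowest, median and highest), had a PFC median of 0.117 CPM and a PFC maximum of 1.48. Nkx2-2, which also marks oligodendrocyte progenitors, was the least regional of this class at 7.27 CPM (median) in hypothalamus and 2.10 in PFC, a log2 difference of 1.80 ± 0.10. Nkx2-4 and Six6 were the closest to hypothalamus-only. Nkx2-4 had 1946 reads over the hypothalamus libraries and 1 read over the PFC libraries, a pooled ratio of 2293.5 (exact 95% interval 411 to 90634, counting error only, without molecular identifiers). Six6 had 4266 reads against 5. Rax, in adults a gene of tanycytes, the ependymal cells that line the third ventricle, was the lowest at a median of 1.00 CPM in hypothalamus, with 12 PFC reads in all.

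Both paraventricular factors were on in every hypothalamus library. Sim1, a bHLH-PAS factor whose loss causes obesity, lay at 3.31, 14.4 and 19.4 CPM (lowest, median and highest), where the lowest value was the library that stood apart and the next was 10.2. In PFC, 22 of 31 libraries had no Sim1 read. Otp lay at 18.3, 27.1 and 38.0 CPM in hypothalamus (the highest being the library that stood apart, next 37.3) and at a median of 0.115 CPM in PFC, a log2 difference of 7.82 ± 0.19. The highest PFC library for Otp, at 1.29 CPM, was saline 4 weeks replicate 3, which recurs below. The factors grouped as ventromedial were lower and wider. Nr5a1 ran from 1.09 to 10.9 CPM (median 2.79) over hypothalamus libraries, the zinc-finger factor Fezf1 from 2.68 to 12.8 (median 5.14), and Nr5a2 (LRH-1), a relative of Nr5a1, from 0.803 to 5.85 (median 1.98). Each had a median of 0 CPM in PFC. Between hypothalamus libraries Nr5a2 did not go with Nr5a1 (r = -0.153) or Fezf1 (-0.252) but with Tbx3 (0.804). Its values thus do not bear out the class name for it.

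Isl1, a LIM-homeodomain factor of arcuate Pomc neurons and also of striatal and cholinergic neurons, led the arcuate and tuberal class at 9.80, 17.2 and 22.8 CPM in hypothalamus, with the library that stood apart as the lowest and 13.0 as the next. Its PFC values ran from 0 to 5.46 CPM around a median of 0.0754, and the log2 difference was 5.83 ± 0.29. The T-box factor Tbx3 was measurable in each PFC library (1.05 to 3.44 CPM, against 5.14 to 17.2 in hypothalamus), with a log2 difference of 2.21 ± 0.10. Hmx2 and Hmx3, homeobox genes next to each other on chromosome 7, had medians of 1.25 and 1.73 CPM in hypothalamus, and 28 and 29 of 31 PFC libraries had no read of them.

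Of the mammillary and midbrain-floor class, Foxb1 was the most even, at 5.22, 7.48 and 10.4 CPM in hypothalamus against 32 reads over all PFC libraries. Lmx1b, a factor of dopaminergic and serotonergic neurons, was the only one of these 8 that passed the filter in PFC (median 0.660 CPM against 4.70 in hypothalamus, log2 difference 2.78 ± 0.17). Its paralog Lmx1a had a median of 3.68 CPM in hypothalamus and 20 PFC reads in all. The forkhead factors Foxa1 and Foxa2 had medians of 3.14 and 0.708 CPM in hypothalamus with 7 and 5 PFC reads. Barhl1 (1.51 CPM), Irx3 (2.68 CPM) and Irx5 (1.94 CPM), homeobox genes of the mammillary and subthalamic territory, had 27, 45 and 22 PFC reads.

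The LIM class split. Lhx1, needed in the suprachiasmatic nucleus, was hypothalamic (median 8.59 CPM against 0 in PFC). Lhx9, a factor of thalamic and lateral hypothalamic neurons, was also higher in the hypothalamus block, at 6.62, 16.6 and 41.3 CPM against a PFC median of 0.246. The block held thalamic genes as well, and Lhx9 went with their sum (r = 0.883, described with the marker lists). Lhx6, which cortical interneurons keep after they leave the ganglionic eminence, did not differ beyond its error, with a log2 difference of -0.03 ± 0.12 (adjusted p = 0.827), a value whose sign flipped with another scaling. Its hypothalamus libraries spread from 6.12 to 37.0 CPM (median 21.4) and enclosed all PFC libraries, which lay between 14.6 and 28.4 (median 19.1). Lhx8, the close relative that specifies forebrain cholinergic neurons, was at 0.748, 7.55 and 14.1 CPM in hypothalamus and at a PFC median of 0.0410 CPM, and its regions overlapped where the lowest hypothalamus libraries met the highest PFC libraries, which reached 3.03 CPM.

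The GABAergic class was the nearest to even between regions. Dlx1 lay at 22.3 to 46.0 CPM in hypothalamus (median 33.6) and 22.1 to 57.6 in PFC (median 36.4). Its log2 difference of -0.14 ± 0.06 was called (adjusted p = 0.0361) but lost the call without the filter on low counts (-0.08, adjusted p = 0.334), with other size factors (0.144), in DESeq2 (0.145), in a weighted limma-voom fit (0.127) and with the animal as a block (0.0769). The call was also lost without any 1 of 9 libraries, at adjusted p values up to 0.161 (without PFC saline 4 weeks replicate 3). Dlx2, Dlx5 and Dlx6 were higher in hypothalamus by 1.15 ± 0.09, 0.70 ± 0.11 and 0.86 ± 0.11 on the log2 scale, with overlapping libraries. Their medians were 7.81, 4.46 and 8.92 CPM in hypothalamus and 3.40, 2.78 and 4.41 CPM in PFC. Meis2, a TALE homeodomain cofactor of striatal and cortical projection neurons, was the other way round at 127.6, 171.2 and 215.2 CPM in PFC against 14.8 (the library that stood apart, next 17.7), 32.1 and 84.2 in hypothalamus, a log2 difference of -2.29 ± 0.11 with no overlap. Of the broad class, Zfhx3, a large zinc-finger homeodomain protein of the circadian clock, was higher in hypothalamus by 3.20 ± 0.07 on the log2 scale (medians 49.7 and 5.39 CPM, no overlap). Its relative Zfhx4 differed by 1.44 ± 0.08 (medians 55.9 and 21.3 CPM) and Onecut2 by 1.40 ± 0.12 (12.3 and 4.92 CPM), both with overlap.

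A second list of 38 forebrain transcription factors outside the 35 was read beside them, and 35 of it were tested. Of these, 23 were higher in hypothalamus and 10 in PFC, beside 36.5% and 39.6% of all tested genes, with a median log2 difference of 1.91. Of the 23 higher in hypothalamus, 12 passed the filter on low counts through the hypothalamus alone. Among the 23 of the list that also passed in PFC libraries alone, 11 were higher in hypothalamus and 10 in PFC, with a median of 0.02. Among those with the smallest p were Lhx2, with a log2 difference of -2.47, and Tcf7l2, with 4.27.

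None of the 35 passed an adjusted p of 0.05 for psilocybin against saline, in either region at either time. In edgeR 0 of 35 were called in each of the 4 comparisons, beside 0%, 0%, 0.0105% and 0% of all tested genes for hypothalamus 3 h, hypothalamus 4 weeks, PFC 3 h and PFC 4 weeks. DESeq2 and limma-voom also called none of the 35, beside 0%, 0.0686%, 0.0475% and 0.1% of all genes in DESeq2 and 0%, 0%, 6.49% and 0% in voom. At an unadjusted p below 0.05 edgeR marked 2, 0, 5 and 12 members in that order, beside 1.78%, 9.61%, 7.23% and 2.4% of all tested genes, DESeq2 3, 0, 4 and 11 (1.89%, 10.5%, 8.09% and 2.64% of all genes), and voom 9, 3, 0 and 0 (5.71%, 4.23%, 21.5% and 4.94%). Of the 5 and 12 that edgeR marked in PFC, 1 and 2 were among the 15 members that passed the filter in PFC libraries alone. The median log2 change over the 35 was -0.12 in hypothalamus at 3 h and 0.06 at 4 weeks, and over the 15 measurable in PFC it was 0.10 at 3 h and -0.14 at 4 weeks, beside all-gene medians between -0.01 and 0.01. Both regions came from the same mice, and the treatment, harvest and interaction comparisons below share groups of libraries.

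The members with the smallest p in hypothalamus at 3 h were Lhx6, Dlx1 and Dlx5, factors of GABAergic neurons, and none passed the correction. Lhx6 was at 11.1, 26.6 and 29.2 CPM (lowest, median and highest) in 7 saline libraries and at 6.12, 17.6 and 26.2 in 8 psilocybin libraries. The groups overlapped widely, and the log2 change was -0.66 ± 0.25 (adjusted p = 1). Dlx1 had a log2 change of -0.27 ± 0.12 (30.2 to 45.5 CPM in saline, 22.3 to 37.1 in psilocybin, adjusted p = 1) and Dlx5 one of -0.43 ± 0.21 (3.99 to 6.80 against 3.41 to 5.33 CPM, adjusted p = 1). Marker sums of neighbouring tissue had overlapping ranges in these groups and were not tested. The 10-gene striatal sum was 278 to 736 CPM in saline (median 440) and 248 to 444 in psilocybin (median 312), the 9-gene thalamic sum 439 to 793 (median 610) and 377 to 834 CPM (median 767), and none of those 19 genes was at 0 in any hypothalamus library. Their part in the Lhx6 and Dlx values was not tested.

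At 4 weeks in hypothalamus the smallest p values belonged to Barhl1, with a log2 change of 0.46 ± 0.35 (adjusted p = 0.716), Nkx2-4 with 0.35 ± 0.27 and Nkx2-2 with 0.22 ± 0.18. Barhl1 spread over 0.370 to 2.56 CPM in saline and 0.551 to 2.21 in psilocybin libraries, which overlap almost entirely. The Nkx2-4 and Nkx2-2 values rested on the library that stood apart, since without it they were 0.006 and 0.07.

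In PFC the members with the smallest p at each time, Lmx1b aside, had a handful of reads. At 3 h Barhl1 had 13 reads over the saline and 2 over the psilocybin libraries, a ratio of 6.34 (95% interval 1.44 to 57.9, counting error only; adjusted p = 0.557), and Lhx1 had 9 and 1, a ratio of 8.78 (1.22 to 385; adjusted p = 0.641). Of the 9 Lhx1 reads 7 lay in saline 3 h replicate 8, and the log2 change of -2.39 was -0.78 without it. Lmx1b, the only one of the 3 that is measurable in PFC, lay at 0 to 2.39 CPM in saline (median 1.43) and 0.0782 to 1.52 in psilocybin (median 0.654). Its log2 change was -0.97 ± 0.36 (adjusted p = 0.581), with overlapping groups. At 4 weeks Foxb1 had 27 reads in saline and 3 in psilocybin libraries, a ratio of 6.76 (2.08 to 34.8; adjusted p = 0.708). Of the 27 reads 19 lay in saline 4 weeks replicate 3, and the log2 change of -2.30 was -1.48 without it. Nr5a2 had 19 and 2, a ratio of 7.14 (1.72 to 63.2; adjusted p = 1). Hmx3 had 19 and 0, so it was at least 4.76-fold higher in saline against a floor of 3 reads over the group (adjusted p = 1), with all 19 reads in the same replicate 3.

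Whether the psilocybin effect differed between times or between regions was tested as an interaction. No member was called in any of the 4 tests by edgeR, DESeq2 or voom. The share of all tested genes called was 0% in each test by edgeR, and in the order given next 0%, 0.0211%, 0% and 0.338% by DESeq2 and 0%, 0.00527%, 0.0422% and 0% by voom. At an unadjusted p below 0.05 edgeR marked 0 members between times in hypothalamus, 8 between times in PFC, 5 between regions at 3 h and 8 between regions at 4 weeks, beside 5.27%, 3.08%, 2.78% and 6.69% of all tested genes. Of the 8, 5 and 8 members, 1 each was among the 15 that passed the filter in PFC libraries alone. DESeq2 marked 0, 9, 4 and 8 (5.54%, 3.55%, 3.24% and 7.22% of all genes) and voom 9, 0, 0 and 0 (5.77%, 8.17%, 15% and 3.47%). In hypothalamus the smallest p belonged to Lhx9, with a log2 difference of -0.97 ± 0.50 between the 4-week and the 3 h effect, followed by Dlx5 (0.54 ± 0.30) and Nkx2-2 (0.45 ± 0.26), at adjusted p values of 0.904 to 0.906. In PFC they were Hmx2, Nr5a2 and Hmx3 (adjusted p = 1), and between regions at 3 h Barhl1, Sim1 and Lhx1 (adjusted p = 1). Between regions at 4 weeks they were Foxb1 (adjusted p = 0.283), Nr5a2 (0.412) and Hmx2 (0.482). The PFC values behind these tests rest on few reads. Without PFC saline 4 weeks replicate 3 the log2 difference between times in PFC went from -4.40 to -1.25 for Hmx2 and from -5.11 to -1.54 for Hmx3, and that between regions at 4 weeks from 2.30 to 1.49 for Foxb1 and from 3.28 to 0.43 for Hmx2. Without PFC psilocybin 3 h replicate 8 the difference between times was -1.61 for Hmx2 and -3.11 for Hmx3. Without PFC saline 3 h replicate 8 the difference between regions at 3 h went from 2.26 to 0.65 for Lhx1, and without PFC psilocybin 3 h replicate 1 it was 3.43.

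Harvest time was compared within each treatment. In hypothalamus no member was called in saline mice, beside 0.685% of all tested genes, nor in psilocybin mice, beside 1.16%. At an unadjusted p below 0.05 edgeR marked 2 members in each, beside 8.09% and 17.4% of all tested genes. DESeq2 called 0 in both, beside 1.01% and 2.8%. Voom called more genes in all, 7.25% of those tested in saline and 3.29% in psilocybin mice, and among them 3 members in saline, Nr5a1 (-0.84, adjusted p = 0.0262), Hmx2 (-0.58, adjusted p = 0.0416) and Hmx3 (-0.64, adjusted p = 0.0144), and 2 in psilocybin mice, Foxa1 (-0.65, adjusted p = 0.0440) and Foxa2 (-1.27, adjusted p = 0.0265). In the edgeR fit Nr5a1 had a log2 difference of -0.82 ± 0.36 at 4 weeks against 3 h in saline mice (adjusted p = 0.495), with 2.51, 6.11 and 10.9 CPM at 3 h and 1.47, 2.36 and 6.27 at 4 weeks. The lower part of the 3 h range was shared with the 4-week libraries, and the difference was -0.42 without saline 3 h replicate 6. Lhx9 had 0.73 ± 0.36 (adjusted p = 0.614) and Dlx1 -0.24 ± 0.12 (0.622). The median over the 35 in saline mice was -0.15, with 30 of 35 negative, beside -0.002 over all genes. In psilocybin mice the smallest p belonged to Zfhx3 (-0.27 ± 0.12, adjusted p = 0.221), Nkx2-2 (0.37 ± 0.18, 0.271) and Foxa2 (-0.76 ± 0.45, 0.373), and the median was 0.03 beside 0.03. Without the library that stood apart the value for Nkx2-2 was 0.21.

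In PFC of saline mice 6 members were called, all higher at 4 weeks, beside 4.72% of all tested genes. Only Isl1 of the 6 was among the 15 members that passed the filter in PFC libraries alone, and the other 5 passed through the hypothalamus. They were Foxb1, Otp, Isl1, Nkx2-1, Lhx8 and Hmx3, which have their main expression in the hypothalamus or basal forebrain, and the reads behind them were few and unevenly spread. Isl1 had 18 reads over 8 libraries at 3 h and 213 at 4 weeks, at 0, 0.0178 and 0.675 CPM (lowest, median and highest) against 0, 0.567 and 5.46 (log2 difference 3.17 ± 0.75, adjusted p = 0.00649). Lhx8 had 8 and 256 reads and medians of 0 and 0.0208 CPM (3.91 ± 1.03, adjusted p = 0.0158). Nkx2-1 had 15 and 118 (2.24 ± 0.58, adjusted p = 0.0132). For each of these the groups overlapped, with libraries at 0 on both sides.

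Otp had 7 and 103 reads (2.86 ± 0.68, adjusted p = 0.00608), with 0 to 0.200 CPM at 3 h and 0 to 1.29 at 4 weeks. Foxb1 had 1 and 27, a ratio of 21.4 (95% interval 3.54 to 878, counting error only; adjusted p = 0.00185). Hmx3 had 0 and 19, at least 5.03-fold higher at 4 weeks against a floor of 3 reads over the group (adjusted p = 0.0384). The reads lay largely in replicates 3 and 6 of the 4-week saline group. Replicate 3 held 19 of 27 Foxb1 reads, 90 of 103 Otp reads, 202 of 256 Lhx8 reads, 80 of 118 Nkx2-1 reads and all 19 Hmx3 reads, and replicate 6 held 92 of 213 Isl1 reads.

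**Figure D2:**
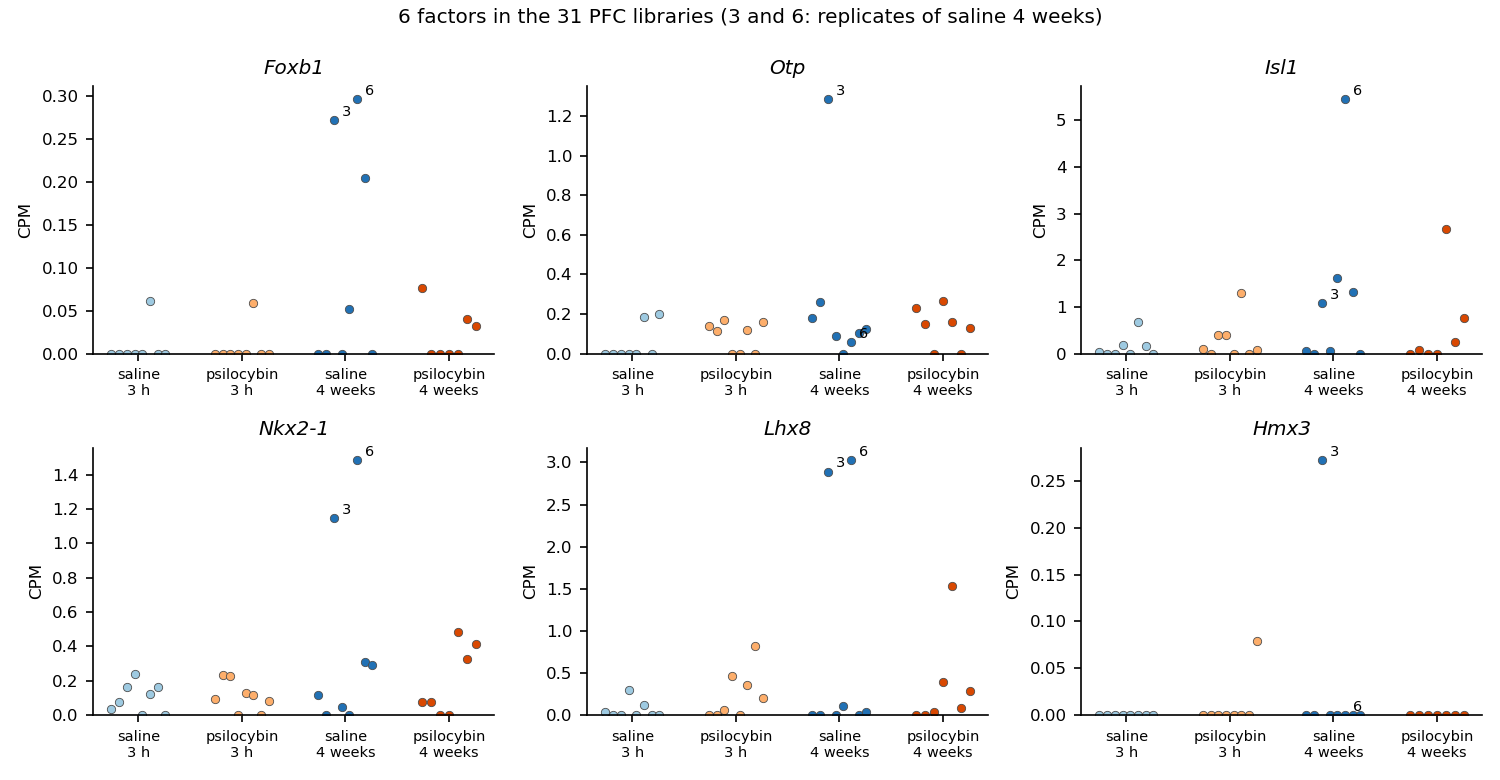
CPM of the 6 factors called between 3 h and 4 weeks in PFC of saline mice, each point a library (8 per group, 7 for psilocybin 4 weeks), with saline 4 weeks replicates 3 and 6 numbered. Replicates 3 and 6 are the highest for Nkx2-1, Lhx8 and Foxb1, replicate 3 is the highest for Otp (1.29 CPM) and Hmx3 (0.272 CPM) and replicate 6 for Isl1 (5.46 CPM), while most other libraries lie near 0.

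Without replicate 3 a single member was called (of 811 genes called in all), without replicate 6 there were 3 (of 669), and without both there were 0 (of 630), against 6 of 896 with them. The log2 difference of Lhx8 was then -0.97. The call of Hmx3 was also lost without any 1 of 5 of the 3 h libraries, which hold no Hmx3 read (adjusted p up to 0.0828). With the cage as a block Lhx8 (adjusted p = 0.0680) and Hmx3 (0.160) were not called, and Six3 was (1.87, adjusted p = 0.0404). Limma-voom called none of the 35, beside 5.97% of all genes. DESeq2, with 5.98% of all genes called, called 5 of the 6, all but Hmx3 (adjusted p = 0.0685), and also Lmx1b, which was lower at 4 weeks (-1.04, adjusted p = 0.0270). Replicate 3 was the deepest library, with 70361839 counts, and held 508 of the 1052 PFC reads of the 20 members that passed the filter through the hypothalamus alone. Replicate 6 held 97 and the other libraries 5 to 43 each. Of the 12 genes of the hypothalamic list, Oxt and Gal were higher in replicate 3 than in any other PFC library, in reads per 1000000 without scaling. Oxt was at 7.58 against at most 1.64 and Gal at 4.21 against 0.785, and Trh was level with the next library (9.22 against 9.21). Avp, Agrp and Pomc ranked 4 of 31 in replicate 3, Ghrh 5, Hcrt 9, Hdc 13, Sst 15 and Pmch 17, and Kiss1 had no read in any library. Of the striatal and septal genes, 0 of 10 and 0 of 6 stood above the other libraries. Replicate 6 had the highest striatal sum of the PFC libraries, 2211 CPM against 275 to 1010 in the rest. The part of these libraries' other transcripts in the 6 calls was not tested.

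In psilocybin mice 1 member was called in PFC between times, Lhx1, beside 5.96% of all tested genes. It is not among the 15 that passed the filter in PFC libraries alone. DESeq2 also called Lhx1 alone, beside 7.97% of all genes, and voom none, beside 19.1%. Lhx1 had 1 read at 3 h and 16 at 4 weeks, a ratio of 16.5 (95% interval 2.56 to 692; adjusted p = 0.0290). The call was lost without psilocybin 3 h replicate 5, 6 or 8 or without psilocybin 4 weeks replicate 6, 7 or 8 (adjusted p 0.0521 to 0.0690). Rax (0 and 9 reads, at least 3.09-fold higher at 4 weeks, adjusted p = 0.0516) and Sim1 (0 and 8, at least 2.75-fold, adjusted p = 0.113) followed, and Rax was called with the cage as a block (0.0459) and without psilocybin 4 weeks replicate 1 (0.0495), 4 (0.0490) or 8 (0.0193). Over the 15 members measurable in PFC the median log2 difference was 0.05 in saline and -0.04 in psilocybin mice, beside 0.004 and -0.01 over all genes.

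In the list of other forebrain factors 0 of 35 were called for psilocybin in any comparison, with 3, 0, 6 and 3 at an unadjusted p below 0.05 in hypothalamus 3 h, hypothalamus 4 weeks, PFC 3 h and PFC 4 weeks, where the shares of all tested genes were 1.78%, 9.61%, 7.23% and 2.4%. Between harvest times 0 were called in hypothalamus of saline mice (1 at an unadjusted p below 0.05, beside 8.09% of all tested genes) and 1 in hypothalamus of psilocybin mice (Nkx6-2, 0.94, adjusted p = 0.0280), beside 0.685% and 1.16% of all tested genes. In PFC 1 was called in saline mice (Uncx, 2.92, adjusted p = 0.0400) and 4 in psilocybin mice, led by Prdm12 (3.47, adjusted p = 0.000550), Nr2f2 (-0.51, 0.0303) and Emx2 (-0.56, 0.0304), beside 4.72% and 5.96% of all tested genes.

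Single hypothalamus libraries differed widely in these factors. The residual SD of log2 CPM over the 31 libraries, after group and pool, was above the median of all tested genes (0.270) for 30 of 35 members, and for 33 of 35 without the library that stood apart, when the median was 0.183. It was largest for Lhx8 (0.938), Foxa2 (0.886), Rax (0.786), Nr5a1 (0.770), Barhl1 (0.756) and Lhx6 (0.703). Counting error alone would give an SD of 0.499 on the same log2 scale for the sparse Foxa2, 0.155 for Lhx8, 0.214 for Nr5a1 and 0.0877 for Lhx6. It would give 0.384 for Rax, 0.350 for Barhl1 and 0.359 for Hmx2, whose residual SD was 0.549. The count of members above the median is a description only. The members were chosen with earlier results of these data known, and the median was not matched for level. Otp (0.281), Dlx2 (0.283) and Nkx2-1 (0.295) lay just above it. The ratio of the highest to the lowest library was 18.8 for Lhx8, 10.1 for Nr5a1 and 6.05 for Lhx6. The steadiest were Zfhx3 (0.146), Six3 (0.199), Dlx1 (0.246), Foxb1 (0.248) and Isl1 (0.251), and Zfhx3 spanned only 1.70 times from its lowest to its highest library. Sim1 went from 0.425 to 0.232 and Zfhx4 from 0.426 to 0.173 without the library that stood apart.

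Some members shared this spread in pairs. The 18 pairs tested were chosen with earlier results of these data known, so their p values are a description and no independent support. The share of other gene pairs that pass is not given here. Lhx6 and Lhx8 varied together over the 31 libraries, with Pearson's r = 0.914 and Spearman's rho = 0.913 after group and pool were removed (permutation within groups, unadjusted p = 1e-05, the smallest these permutations can give, and Benjamini-Hochberg adjusted p = 9e-05 over 18 pairs). Without the pair of libraries farthest from the median r was 0.929, and within pools A and B it was 0.949 (n = 15) and 0.903 (n = 16). Nr5a1 and Fezf1 of the ventromedial nucleus had r = 0.830 and rho = 0.820 (adjusted p = 9e-05), 0.776 without the farthest libraries, and 0.874 and 0.782 in the pools. In both pairs libraries of all 4 groups mixed along the range, as the plot of the 3 pairs shows.

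**Figure D3:**
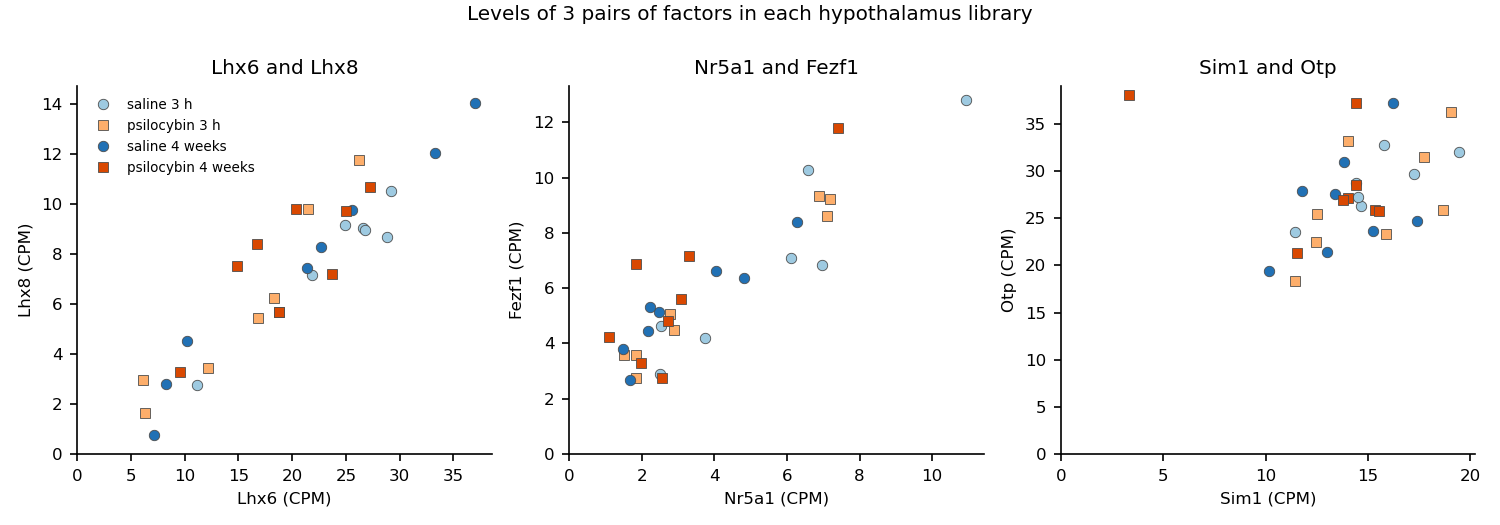
CPM of Lhx6 against Lhx8, Nr5a1 against Fezf1 and Sim1 against Otp in each of 31 hypothalamus libraries, coloured by treatment and harvest time. Lhx6 with Lhx8 (r = 0.914) and Nr5a1 with Fezf1 (r = 0.830) lie along a line in which the groups mix, while in the Sim1 and Otp plot 1 psilocybin 4 weeks library lies far to the left at 3.31 CPM of Sim1.

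The linked pairs of the Dlx clusters followed. Dlx5 and Dlx6, neighbours on chromosome 6, had r = 0.726 and rho = 0.758 (adjusted p = 0.000828; 0.753 without the farthest libraries; 0.580 and 0.851 in pools A and B). Dlx1 and Dlx2, neighbours on chromosome 2, had r = 0.71 and rho = 0.647 (adjusted p = 0.0003; 0.615; 0.683 and 0.736). Of factor and peptide pairs, Tbx3 with Agrp, the arcuate orexigenic peptide, had r = 0.71 and rho = 0.777 (adjusted p = 0.000405; 0.656; 0.866 and 0.615), and Otp with Trh r = 0.62 and rho = 0.576 (adjusted p = 0.00207; 0.583; 0.367 and 0.719). With all 64 libraries Nr5a1 with Fezf1 (0.413, adjusted p = 0.0784), Dlx5 with Dlx6 (0.330, 0.0591) and Tbx3 with Agrp (0.00241, 0.985) did not pass, nor did Otp with Trh in saline libraries (0.457, adjusted p = 0.183). In all 10 of the 18 pairs passed, the other 4 with r from 0.469 to 0.522: Irx3 with Irx5, Lmx1a with Foxa1, Foxb1 with Barhl1 and Hmx2 with Hmx3. For these 4, without the farthest libraries, r was 0.434, 0.529, 0.305 and 0.330 in that order, in pool A 0.162, 0.338, 0.543 and 0.727 and in pool B 0.733, 0.567, 0.419 and 0.182, and none of the 4 passed in saline libraries alone. Six3 with Six6 (0.397, adjusted p = 0.0826), Lhx1 with Vip (0.287), Lhx9 with Hcrt (-0.0383) and Sim1 with Oxt (-0.478) did not pass. Without the library that stood apart Lhx1 with Vip passed at 0.520 (adjusted p = 0.00857), as it did with the cage as a block (0.399, adjusted p = 0.0414) and in saline libraries alone (0.821, adjusted p = 0.00121), and Sim1 with Oxt was 0.372 (adjusted p = 0.0871). The 3 pairs set across zones had r between -0.0455 and -0.0216 and did not pass, but Nr5a1 with Foxb1 was -0.598 with all 64 libraries (adjusted p = 0.0784) and -0.481 in saline libraries (0.152), and Lhx6 with Foxb1 -0.411 with all 64 (0.0949). Sim1 and Otp had r = 0.0887 and rho = 0.378 (adjusted p = 0.85), but 0.605 without the farthest libraries and it passed without the library that stood apart alone (0.660, adjusted p = 0.000660) and in saline libraries (0.746, adjusted p = 0.00418).

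Over all 595 pairs of members, given as a description, the median r was 0.405 for the 72 pairs within a class and 0.0150 for the 523 pairs between classes (0.420 and 0.0253 without the library that stood apart). The libraries share depth and composition across all pairs. The GABAergic class (median r = 0.564 over 10 pairs) and the ventral and eye-field class (0.473 over 15) had the highest medians of the classes with at least 10 pairs, the broad class had 0.635 over 3 pairs, the mammillary class lay at 0.334 over 28 pairs, and the LIM class had a median of -0.180 over 6 pairs, from -0.637 for Lhx1 with Lhx9 to 0.914 for Lhx6 with Lhx8. The arcuate class lay at 0.172 over 6 pairs. The 3 ventromedial pairs had a median of -0.153, since Nr5a2 had r = -0.153 with Nr5a1 and -0.252 with Fezf1. Across classes Nr5a2 and Tbx3 had r = 0.804 and Hmx2 and Dlx2 0.775. Lhx9 ran against Nkx2-1 (-0.795) and against Otp (-0.632). The high values of Sim1 with Zfhx4 (0.818) and with Lhx1 (0.789) were 0.204 and 0.537 without the library that stood apart.

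**Figure D4:**
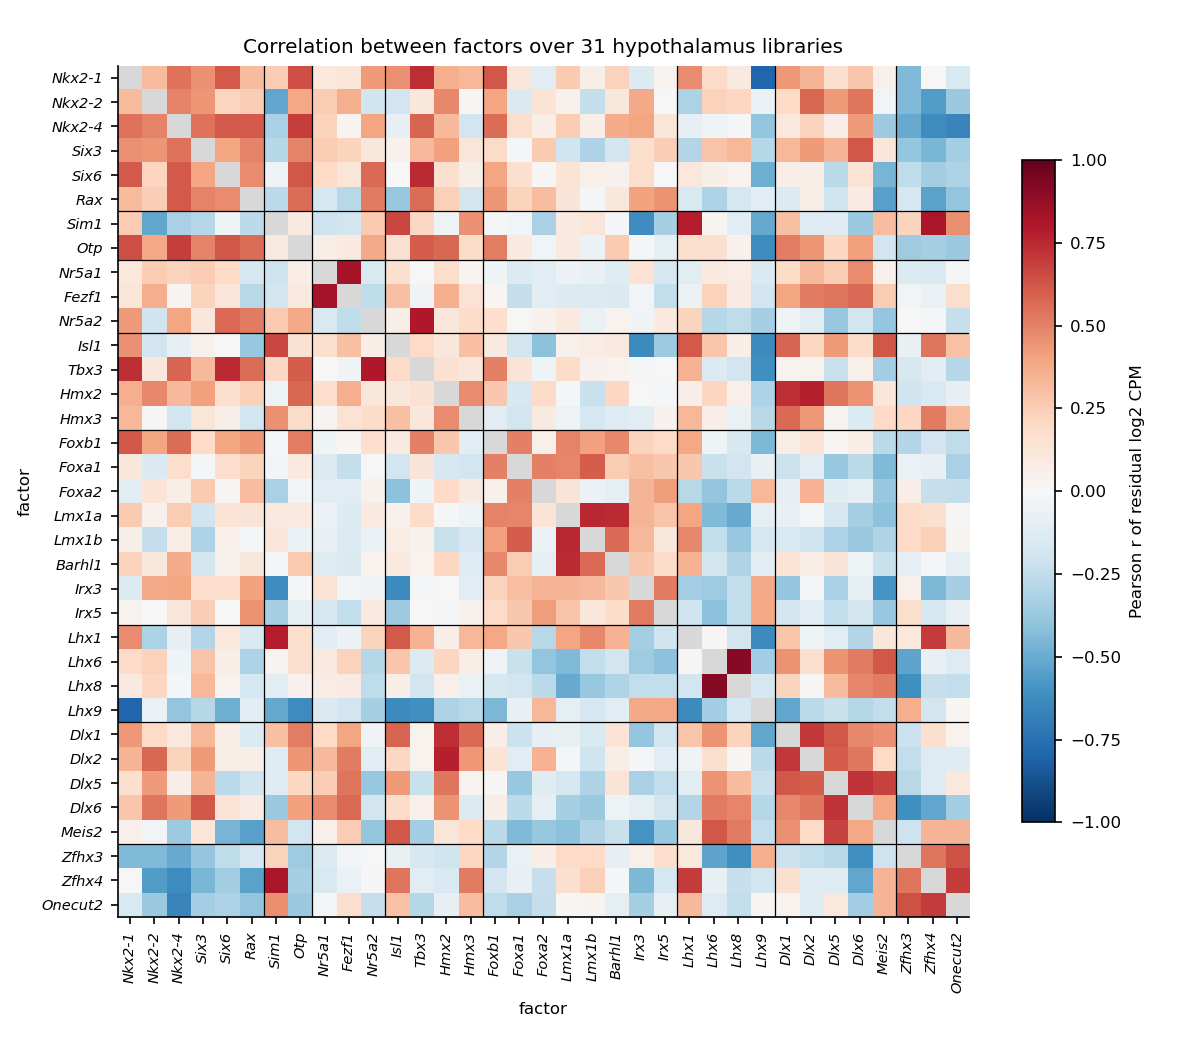
Pearson's r of residual log2 CPM between each pair of the 35 factors over 31 hypothalamus libraries (red positive, blue negative), ordered by class with black lines between classes. The Dlx and Meis2 block, the Lmx1a, Lmx1b and Barhl1 block and the Lhx6 and Lhx8 pair are red, and the Lhx9 row is mostly blue, down to -0.795 with Nkx2-1.

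The members were also set beside marker lists of tissues at or near the block, with r given over 30 libraries without the one that stood apart and no test. Otp (0.902), Nkx2-1 (0.765) and Nkx2-4 (0.751) went with the sum of the hypothalamic list. Lhx9 went with the thalamic sum (0.883), with which Nkx2-1 had r = -0.772. Meis2 and Dlx5 went with the striatal sum (0.909 and 0.805), and Dlx6 and Lhx6 with the sum of the interneuron list, Gad1, Gad2, Pvalb, Sst and Vip (0.823 and 0.811). In hypothalamus libraries this sum was mostly Gad1 (mean 403 CPM) and Gad2 (487 CPM), which GABAergic neurons in general express. Meis2 (0.764) and Dlx1 (0.706) went with it too. Foxa1 went with midbrain dopamine neuron genes (0.71). With all 31 libraries the value for Nkx2-1 and the hypothalamic list was 0.380 and that for Otp 0.775, while those for Lhx9 with the thalamic, Meis2 with the striatal and Lhx6 with the interneuron list were 0.883, 0.853 and 0.810.

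**Figure D5:**
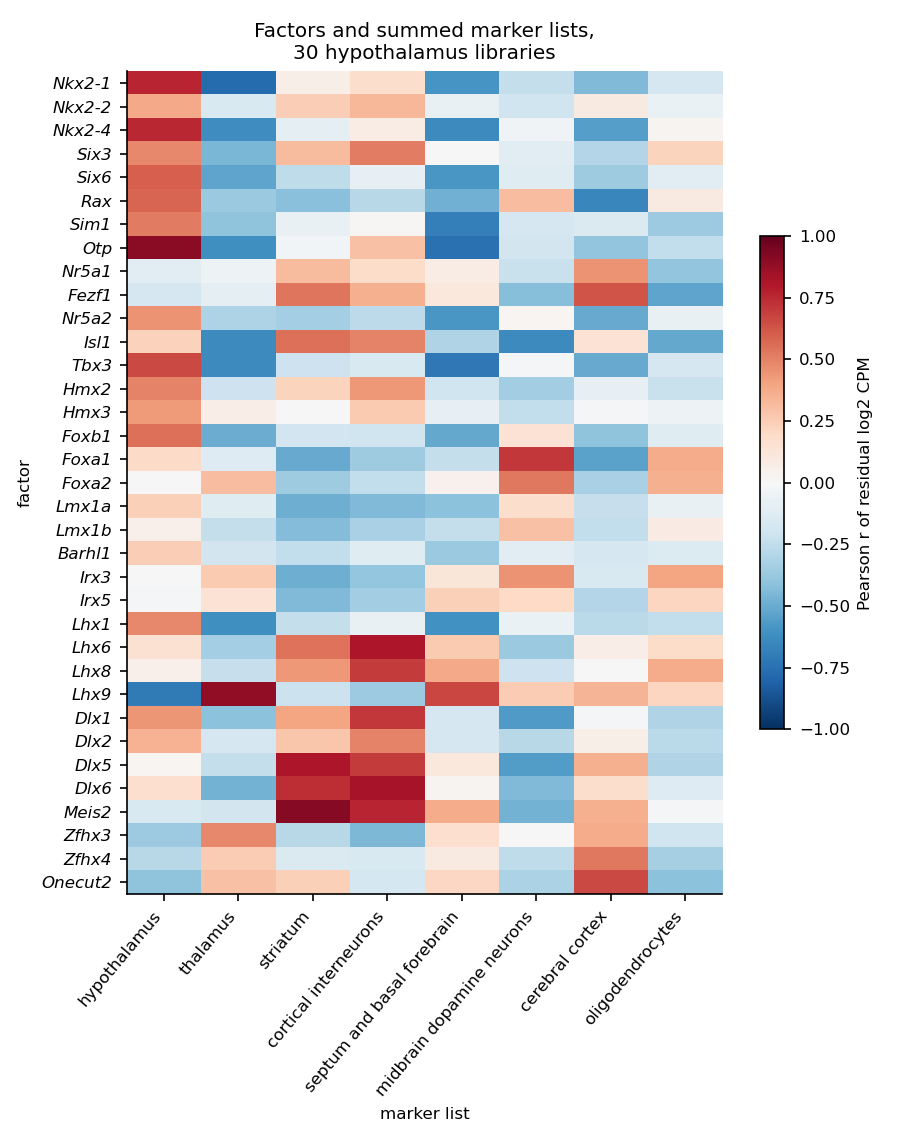
Pearson's r of residual log2 CPM between each of the 35 factors (rows) and the summed level of 8 marker lists (columns) over 30 hypothalamus libraries, without psilocybin 4 weeks replicate 5. Otp is reddest for the hypothalamic list (0.902), Lhx9 for thalamus (0.883), Meis2 for striatum (0.909) and Lhx6 and Dlx6 for the interneuron list (0.811 and 0.823), whose sum is mostly Gad1 and Gad2.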

How the data were processed

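The deposited values are raw read counts per gene for 64 libraries, with no normalization. The authors prepared stranded poly-A libraries, sequenced them paired-end on a NovaSeq instrument, and, per the submitters' processing notes and the study's methods, used bcl2fastq (2.20.0), STAR (2.7.2b) on GRCm38 and featureCounts (1.6.2) to make the counts. Symbols were found for 55141 of 55401 gene identifiers.

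From these counts, 62 libraries with at least 1000000 counts were analysed in R 4.3.3 with edgeR 4.0.16 (TMM scaling, filterByExpr with a minimum count of 10, robust quasi-likelihood test, group plus extraction pool as terms, Benjamini-Hochberg adjustment over 18971 genes, call at adjusted p below 0.05). Standard errors are the log2 change divided by the square root of F. CPM used TMM-scaled library sizes, and FPKM divided CPM by the exon length in the table. Correlations and spread used log2 CPM with a prior count of 1, with group and pool removed, and 100000 permutations within groups for 18 pairs. DESeq2 1.42.0 and limma 3.58.1 (voom with quality weights and the animal as a random block, after the study's methods, except that 1 more library that the study left out, which is not named in the sources used here, was kept) were alternatives, beside other scalings, filters, blocks and left-out libraries. The 35 members, the pairs and the lists were chosen with earlier results of these data known. All 35 members were named with values from both regions, as levels or as counts of reads or libraries. Each other comparison names the members called and the 3 with the smallest p. The value of 1 gene of the second list is not reported here. Lhx6 and Rax were left out of the sums of their own marker lists.

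Depth was 8061033 to 70361839 counts per library (median 18287978.5). Exact intervals (95%) and floors of 3 reads cover counting error only. The edgeR procedure, tested on simulated counts for hypothalamus 4 weeks, recovered 146 of 199 genes changed by 1 on the log2 scale, with 8 false calls among 18827. No library pair within a group agreed within sampling noise, since the lowest chi-square per degree of freedom was 3.85 over 210 pairs. The cage number is shared by groups, but libraries of the same cage had a mean correlation of deviations of 0.0715 in hypothalamus and 0.0683 in PFC (lowest mean of a cage -0.00470 and -0.0169), and the regions of 1 mouse 0.0785. After pool was removed as well these were -0.0249, -0.0404 and 0.0263. The pairing is thus taken from the labels, in which a number marks a cage, and not from these correlations, and fits with cage or animal as a block were alternatives.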

Additional observations from a re-analysis of the deposited data

Results flagged for a closer look

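Each of 212 sets of libraries (a member in a group, with at least 10 reads in its highest library) was checked for 1 library far from the rest, and 28 were flagged, 13 of 140 in hypothalamus and 15 of 72 in PFC. The check is set to flag about 5% of sets by chance, a rate that was not tested on these values. Sets were kept by the reads of their highest library, which favours sparse sets with 1 high library. Hmx2 and Hmx3 in PFC saline 4 weeks, for example, had reads in replicate 3 only. The counts of flagged sets are therefore a description and cannot be read against that rate. All values are in CPM.

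Hypothalamus psilocybin 4 weeks replicate 5 was flagged most often. It was the highest of its group for Nkx2-4 (8.80, next 4.12), Rax (5.52, next 1.73) and Irx3 (8.14, next 4.35), and the lowest for Sim1 (3.31, next 11.5), Lhx1 (3.57, next 7.23) and Zfhx4 (11.2, next 47.2). It also had the highest hypothalamic list sum (3322), mostly of Oxt and Avp, and the lowest tanycyte sum without Rax (96.7) of the hypothalamus libraries. In the same group replicate 4 was the highest for Nr5a1 (7.41, next 3.30) and Dlx2 (11.3, next 8.00).

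In hypothalamus saline 4 weeks, replicate 6 was the highest for Meis2 (74.6, next 34.8) and Dlx5 (8.07, next 5.11), and replicate 7 for Foxa2 (1.79, next 0.889). In saline 3 h replicate 8 was the lowest for Lhx6 (11.1, next 21.8), and in psilocybin 3 h replicate 5 was the highest for Nr5a2 (5.85, next 3.20).

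In PFC the library of cage 6 was flagged in all 4 groups for Isl1: saline 3 h 0.675 (next 0.179), psilocybin 3 h 1.29 (next 0.401), saline 4 weeks 5.46 (next 1.62) and psilocybin 4 weeks 2.66 (next 0.764). It was flagged in 3 groups for Six3, at 3.5 (next 0.537) in saline 3 h, 10.6 (next 4.28) in saline 4 weeks and 4.11 (next 1.37) in psilocybin 4 weeks. In psilocybin 4 weeks it was also the highest for Lhx8 (1.53, next 0.395), and in saline 4 weeks for Dlx6 (13.4, next 7.67). The striatal marker sums of these 4 libraries were 800, 908, 2211 and 1010 CPM. Each was the highest of its group, and the part of striatal RNA in the flagged values was not tested.

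PFC saline 4 weeks replicate 3 was the highest of its group for Sim1 (0.315, next 0.102), Otp (1.29, next 0.26), Fezf1 (0.315, next 0.118), Hmx2 (0.172, next 0) and Hmx3 (0.272, next 0). PFC saline 3 h replicate 8 was the highest for Lhx9 (1.45, next 0.628).

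Of the 2 libraries left out for depth, hypothalamus saline 3 h replicate 2 (211111 counts) had 33 reads of the 20 members that passed the filter through the hypothalamus alone, 156.3 reads per 1000000, with 14 of the 20 detected, within the 101 to 168 of the libraries used. PFC psilocybin 4 weeks replicate 3 (200066 counts) had 0 such reads, which allows up to 15.0 reads per 1000000.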

How the results depend on the processing

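Counts of called members moved by over 1.5 times in few cases, and the cause was not tested unless stated. For harvest time in hypothalamus voom called 3 members in saline and 2 in psilocybin mice, where edgeR called 0. In PFC of saline mice (6 called) the count was 0 in voom, 0 with only PFC libraries, where 5 of the 6 did not pass the filter and Isl1 had 3.09 (adjusted p = 0.0904), and 0 without replicates 3 and 6 together, an alternative chosen after seeing the data. In PFC of psilocybin mice (1 called) it was 0 without a count filter, 0 with only PFC libraries, 0 in voom, 2 without the hypothalamus library that stood apart and 2 with the cage as a replicate block. The block (cage or animal) moved no other count of calls by over 1.5 times. Leaving out each library in turn gave 1 to 8 members in PFC of saline mice (1 without replicate 3) and 0 to 2 in PFC of psilocybin mice, 33 to 34 between regions, and 0 in the treatment and hypothalamus harvest comparisons.

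Values that changed sign were these. The regional log2 difference of Lhx6 was 0.0113 with other size factors, 0.0229 without a filter, 0.0100 in DESeq2, 0.0392 without PFC saline 4 weeks replicates 3 and 6, and -0.0792 to 0.0252 with each library left out (0.000491 and 0.00107 without hypothalamus saline 4 weeks replicates 3 and 8). Nkx2-4 in hypothalamus at 4 weeks was -0.10 in voom. In PFC of saline mice Hmx3 was -0.0607 without replicates 3 and 6 and -0.12 to 3.72 with each library left out, and Lhx8 was -0.97 without both. Correlations of Foxb1 with Nr5a1, Sim1 and Lhx6 were 0.0434, 0.0488 and 0.000248 without pool removed. With Sim1 it was 0.236 without the library that stood apart, 0.0353 with the replicate block and 0.446 in saline libraries. With Lhx6 it was 0.173 with the block and 0.0247 in saline libraries. Sim1 with Oxt was 0.372 without the library that stood apart and 0.531 in saline libraries. The 18 pairs gave 7 to 12 passing correlations over the alternatives. Lost with all 64 libraries, which here add the hypothalamus library of 211111 counts, were Nr5a1 with Fezf1 (0.413, adjusted p = 0.0784), Dlx5 with Dlx6 (0.330, 0.0591) and Tbx3 with Agrp (0.00241, 0.985). In saline libraries Otp with Trh (0.457, 0.183), Hmx2 with Hmx3 (0.401, 0.219), Irx3 with Irx5 (0.527, 0.152), Lmx1a with Foxa1 (0.519, 0.0942) and Foxb1 with Barhl1 (0.567, 0.0942) were lost, and without pool removed Hmx2 with Hmx3 (0.367, 0.105) was lost. Over the alternatives 26 to 34 members lay above the median spread.

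Of 718 log2 changes under alternatives other than left-out libraries, 683 kept direction and side of the threshold. Depth limits the PFC values of the 20 members that passed the filter through the hypothalamus alone, which rest on 1052 reads.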
